A study of Mus musculus with 18 samples.

Results

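The nuclear-encoded genes of the mitochondrial respiratory chain were followed in mouse regulatory T (Treg) cells taken from 6 sites of the body. The members were chosen by symbol: protein-coding genes beginning with Nduf, Uqcr, Cox4 to Cox8 or Atp5, or named Sdha, Sdhb, Sdhc or Sdhd, whose level averaged 1 TPM or more over the 18 libraries. TPM, a transcript count corrected for mRNA length, is a share: it is scaled to the same total in every library. Of 94 protein-coding genes with such symbols, 88 met the level, out of 55487 gene identifiers in the tables. They comprised 7 core and 29 accessory subunits of complex I, 8 complex I assembly factors, 4 subunits of complex II, 8 of complex III, 15 of complex IV and 17 of the ATP synthase. The mean over all libraries chose them, so that being expressed is no result here. Differences between organs were not part of the rule, but they decided the entry of 2 low genes: without bone marrow Cox6a2 averaged 0.316 TPM, and without lung Cox7a1 averaged 0.975. Both genes are kept in the counts of members below, also in those that compare bone marrow or lung. Just inside the limit lay Cox6a2 at 1.26 and Cox7a1 at 1.27 TPM. Just outside lay Cox4i2 at 0.123 TPM, and the other 5 genes (Cox7b2, Cox8b, Cox8c, Ndufa4l2 and a further identifier of Atp5o) were listed at 0 in all 18 libraries.

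Treg cells, the Foxp3-expressing CD4+ T cells that restrain immune responses, were sorted without culture from peripheral blood, liver, lung, spleen, bone marrow and lymph node. All mice were wild-type and untreated, and each site has 3 libraries of polyadenylated RNA. The labels give no strain, age, sex, sorting gate or number of animals per library, and do not say whether replicate libraries came from separate mice. The p-values therefore measure the spread between these libraries, which may be technical.

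The respiratory chain sits in the inner mitochondrial membrane. Complex I takes electrons from NADH and complex II from succinate, both pass them to coenzyme Q, complex III hands them on to cytochrome c, and complex IV reduces oxygen. The proton gradient built by complexes I, III and IV drives the ATP synthase. A small set of core subunits is encoded by mitochondrial DNA, and all the others come from the nucleus and are imported. Treg cells are known to rely on oxidative metabolism, and loss of complex III in these cells is known to impair their suppressive function in mice.

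The nuclear genes share promoter elements for NRF1, ETS factors of the GABP type, YY1 and ERR, the textbook regulators of respiratory chain genes. RefSeq promoter windows of GRCm38.p6, running from 250 bases before to 50 after the start site, matched 74 of the 88 members with 79 windows. Both strands were searched for 6 words. The NRF1 palindrome of 10 letters was in 25.3% of member windows against 4.6% of all windows and 6.38% of windows of protein-coding genes. CCGGAAG (ETS) was in 22.8% against 8.86% and 11.6%. The YY1 word was in 6.33% against 0.633% and 0.889%, TCAAGGTCA (ERR) in 2.53% against 0.423% and 0.334%, and TGACGTCA (CRE) in 5.06% against 1.79% and 2.23%. GGGCGG (SP1) was in 44.3% against 35.7% and 46.2%, near the share of protein-coding genes. The members' windows had a median GC content of 58.67%, against 56.33% for protein-coding genes, and no word contains another.

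Stretches upstream of 6 members described below are shown because together they hold the NRF1, ETS and ERR words and span the members' range of behaviour, from Atp5e, which was highest in spleen, to Sdhd, which was not. Each is read 5′ to 3′ on the gene's own strand, which is the minus strand in all 6, and capitals mark the NRF1, ETS and ERR words. SP1 words are not marked. CTTCCGG and TGACCTTGA are the ETS and ERR words on the other strand. The stretches lie at chr13:74350281-74350360 for Sdha, chr9:50603850-50603969 for Sdhd, chr4:116075072-116075190 for Uqcrh, chr5:115348982-115349078 for Cox6a1, chr2:174464106-174464221 for Atp5e and chr2:73911327-73911446 for Atp5g3.
Sdha: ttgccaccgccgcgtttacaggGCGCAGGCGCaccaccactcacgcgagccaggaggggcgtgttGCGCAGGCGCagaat
Sdhd: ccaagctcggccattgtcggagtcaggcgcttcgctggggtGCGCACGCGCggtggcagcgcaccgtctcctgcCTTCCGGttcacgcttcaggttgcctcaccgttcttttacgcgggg
Uqcrh: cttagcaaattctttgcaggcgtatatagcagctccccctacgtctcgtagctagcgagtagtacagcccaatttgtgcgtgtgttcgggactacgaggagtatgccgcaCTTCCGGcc
Cox6a1: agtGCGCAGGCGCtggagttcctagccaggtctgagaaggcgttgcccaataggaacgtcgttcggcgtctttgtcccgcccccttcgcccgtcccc
Atp5e: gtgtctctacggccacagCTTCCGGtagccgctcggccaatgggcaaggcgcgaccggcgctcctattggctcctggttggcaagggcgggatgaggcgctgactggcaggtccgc
Atp5g3: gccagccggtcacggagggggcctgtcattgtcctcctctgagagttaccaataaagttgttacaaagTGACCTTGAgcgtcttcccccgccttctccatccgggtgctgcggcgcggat
Sdha, which encodes the flavoprotein of complex II, carries the NRF1 word at 3 places upstream of its start, 2 of them in the stretch shown, and Sdhd, which encodes a membrane anchor of the same complex, carries NRF1 and ETS words. Members with and without the NRF1 word had median differences of -0.45 (19 members) and -0.55 (55 members) between blood and spleen, on the log2(TPM + 1) scale used throughout. Those with and without the ETS word had -0.59 (18 members) and -0.51 (56 members). A match is a description of letters in this window and not a binding site.

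The labels were checked against Foxp3, the defining gene of Treg cells, which had 85.4 to 92.2 TPM in blood and 131.7 to 240.3 TPM in the other 5 sites. The 20 general T cell genes summed to 3599 to 3705 TPM in blood and 6020 to 8945 TPM elsewhere. The 14 myeloid markers summed to 26903 to 27669 TPM in blood, 45486 to 45764 in bone marrow, 1703 to 1768 in lung and at most 863 in the other sites, and all 14 were at 1 TPM or more in blood, bone marrow, lung and spleen. The 7 platelet markers summed to 2748 to 2868 TPM in blood, 70.5 to 82.3 in bone marrow and at most 22.6 elsewhere. The 6 erythroid markers were highest in liver (10931 to 11969 TPM) and lowest in lymph node (72.7 to 75.4 TPM). The 6 cytotoxic markers summed to 551 to 609 TPM in blood and at most 122.7 elsewhere, and the 6 B cell markers to 456 to 559 TPM in blood, spleen and bone marrow and at most 146 in the other sites. The 7 hepatocyte markers stayed at or below 19.7 TPM in sum in all libraries, and the 6 lung epithelial markers reached 223 to 298 TPM in lung. The 16 cell cycle genes summed to 222 to 235 TPM in blood and 1213 to 1243 TPM in bone marrow. Fewer cells of a type and less RNA per cell cannot be told apart in such bulk samples, and the part of these RNAs in the results below was not tested. Between 18985 and 19797 genes were above 0 in blood, lymph node and bone marrow libraries, 16685 to 16756 in spleen, 15219 to 15606 in lung and 14314 to 14408 in liver. The 83 members averaging 10 TPM or more differed between replicates by a median coefficient of variation (SD over mean) of 18.9% for liver and 16.4% for lung, but only 8.99% for spleen, 7.4% for blood, 5.74% for bone marrow and 4.32% for lymph node. A difference of a given size is therefore less certain in liver and lung.

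Spleen Treg libraries held the most nuclear respiratory chain mRNA and blood the least. The 88 members summed to 16232, 16266 and 16217 TPM in spleen and 10611, 10859 and 10735 TPM in blood. Lymph node had 13373, 13463 and 13430.0 TPM, bone marrow 13236, 13347 and 13175, liver 12666, 11700.0 and 12030, and lung 11778, 11786 and 12068. The 3 blood libraries lay below the other 15 and the 3 spleen libraries above them, with no overlap, while lymph node and bone marrow lay close together and liver and lung overlapped. As a share of the library, the members took between 1.06% in a blood library and 1.63% in a spleen library. A TPM value is a share, so this order belongs to the mixture of RNA in each library: when libraries were scaled to equal levels of the 20 T cell genes, the members' median difference between blood and each organ changed sign, as given below.

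The 13 subunits encoded by mitochondrial DNA did not follow the nuclear genes. They summed to 71986 to 72174 TPM in blood, 77742 to 85689 in lung and 57406 to 75990 in liver, against 55900.0 to 56775 in spleen, 47946 to 49958 in lymph node and 44742 to 48704 in bone marrow. The ratio of the nuclear sum to the mitochondrial sum is free of any scaling between libraries. It was 0.147, 0.1505 and 0.149 in blood and 0.137, 0.1445 and 0.155 in lung. In spleen it was 0.288, 0.291 and 0.286, in lymph node 0.275, 0.2695 and 0.2801, and in bone marrow 0.272, 0.298 and 0.292. Liver, at 0.221, 0.154 and 0.201, reached down to the lung libraries. All libraries of spleen, lymph node and bone marrow lay above all libraries of blood, lung and liver.

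**Figure D1:**
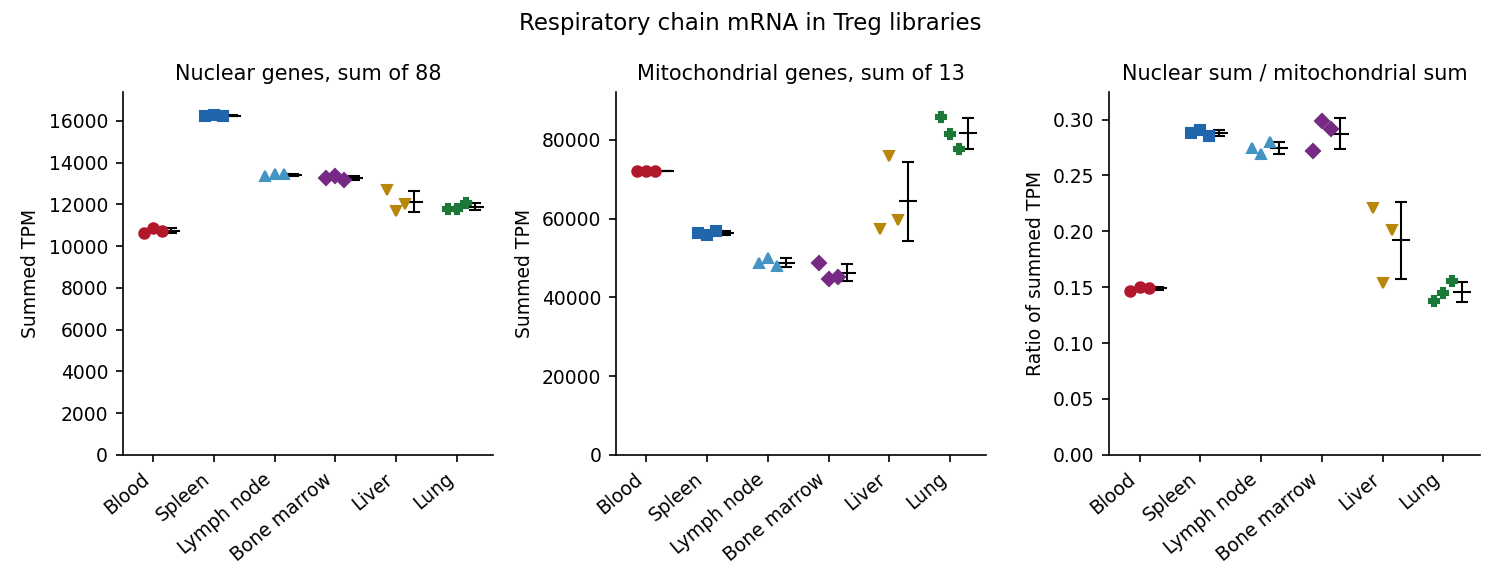
Summed TPM of the 88 nuclear genes (left), summed TPM of the 13 mitochondrially encoded genes (middle) and the ratio of both sums (right), by organ; points are the 3 libraries, the bar beside them is the mean ± SD, and all vertical axes start at 0. The nuclear sum runs from 10611 TPM in a blood library to 16266 in a spleen library (an order that depends on the scaling to TPM), and the ratio, which does not, is 0.155 or lower in blood and lung and 0.2695 or higher in spleen, lymph node and bone marrow.

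Across the 6 sites, 63 of the 88 members (71.6%) differed in limma's F test at an adjusted p under 0.05, against 68% of the 16694 genes tested. All adjusted p-values here are limma's, by the Benjamini-Hochberg method over those 16694 genes, and all 88 members passed the filter, an average of 1 TPM or more in 1 or more sites. The F test called 15 of 17 ATP synthase genes, 22 of 29 accessory and 5 of 7 core subunits of complex I, 3 of 4 of complex II, 6 of 8 of complex III, 11 of 15 of complex IV and 1 of 8 assembly factors. The assembly factors are the least abundant group, with a median of 17.3 TPM against 87.3 to 241 TPM in the others.

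In TPM, the members peaked most often in spleen. Spleen had the highest mean for 56 of 88 members, against 12.1% of all genes tested. Bone marrow followed with 9 (15.5% of all genes), lymph node and lung with 8 each (19.8% and 18.7%), liver with 6 (15.4%) and blood with 1 (18.5%). By role, spleen was highest for 11 of 17 ATP synthase genes, 22 of 29 accessory and 6 of 7 core subunits of complex I, 8 of 15 of complex IV, 4 of 8 of complex III, 2 of 4 of complex II and 3 of 8 assembly factors. Blood had the lowest mean for 39 members, against 22.2% of all genes, lung for 21 against 25.7%, and liver for 18 against 20.6%. Spleen had the lowest mean for 3 members against 17.5%, lymph node for 5 against 8.2%, and bone marrow for 2 against 5.78%. In 23 members, all 3 spleen libraries lay above the other 15, against 2.05% of all genes. That count was 30 with median-of-ratios scaling (3.11% of all genes), 33 after removing abundant RNA classes (2.81%), and 2 with scaling to the T cell genes (0.833%). The 23 comprised 7 ATP synthase genes (Atp5d, Atp5e, Atp5g3, Atp5h, Atp5j2, Atp5l and Atp5o), 12 of complex I (among them Ndufa2, Ndufa7, Ndufb2, Ndufb3, Ndufs3 and Ndufs8) and 4 of complex IV (Cox6a1, Cox6c, Cox7a2l and Ndufa4), and none of complexes II and III. In 9 members, all 3 blood libraries lay below the other 15, against 4.79% of all genes, and with scaling to the T cell genes none did (0.569%). Blood lay above the other 15 libraries in 1 member in TPM, against 10.1% of all genes, and in 35 members with that scaling, against 33.5%.

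**Figure D2:**
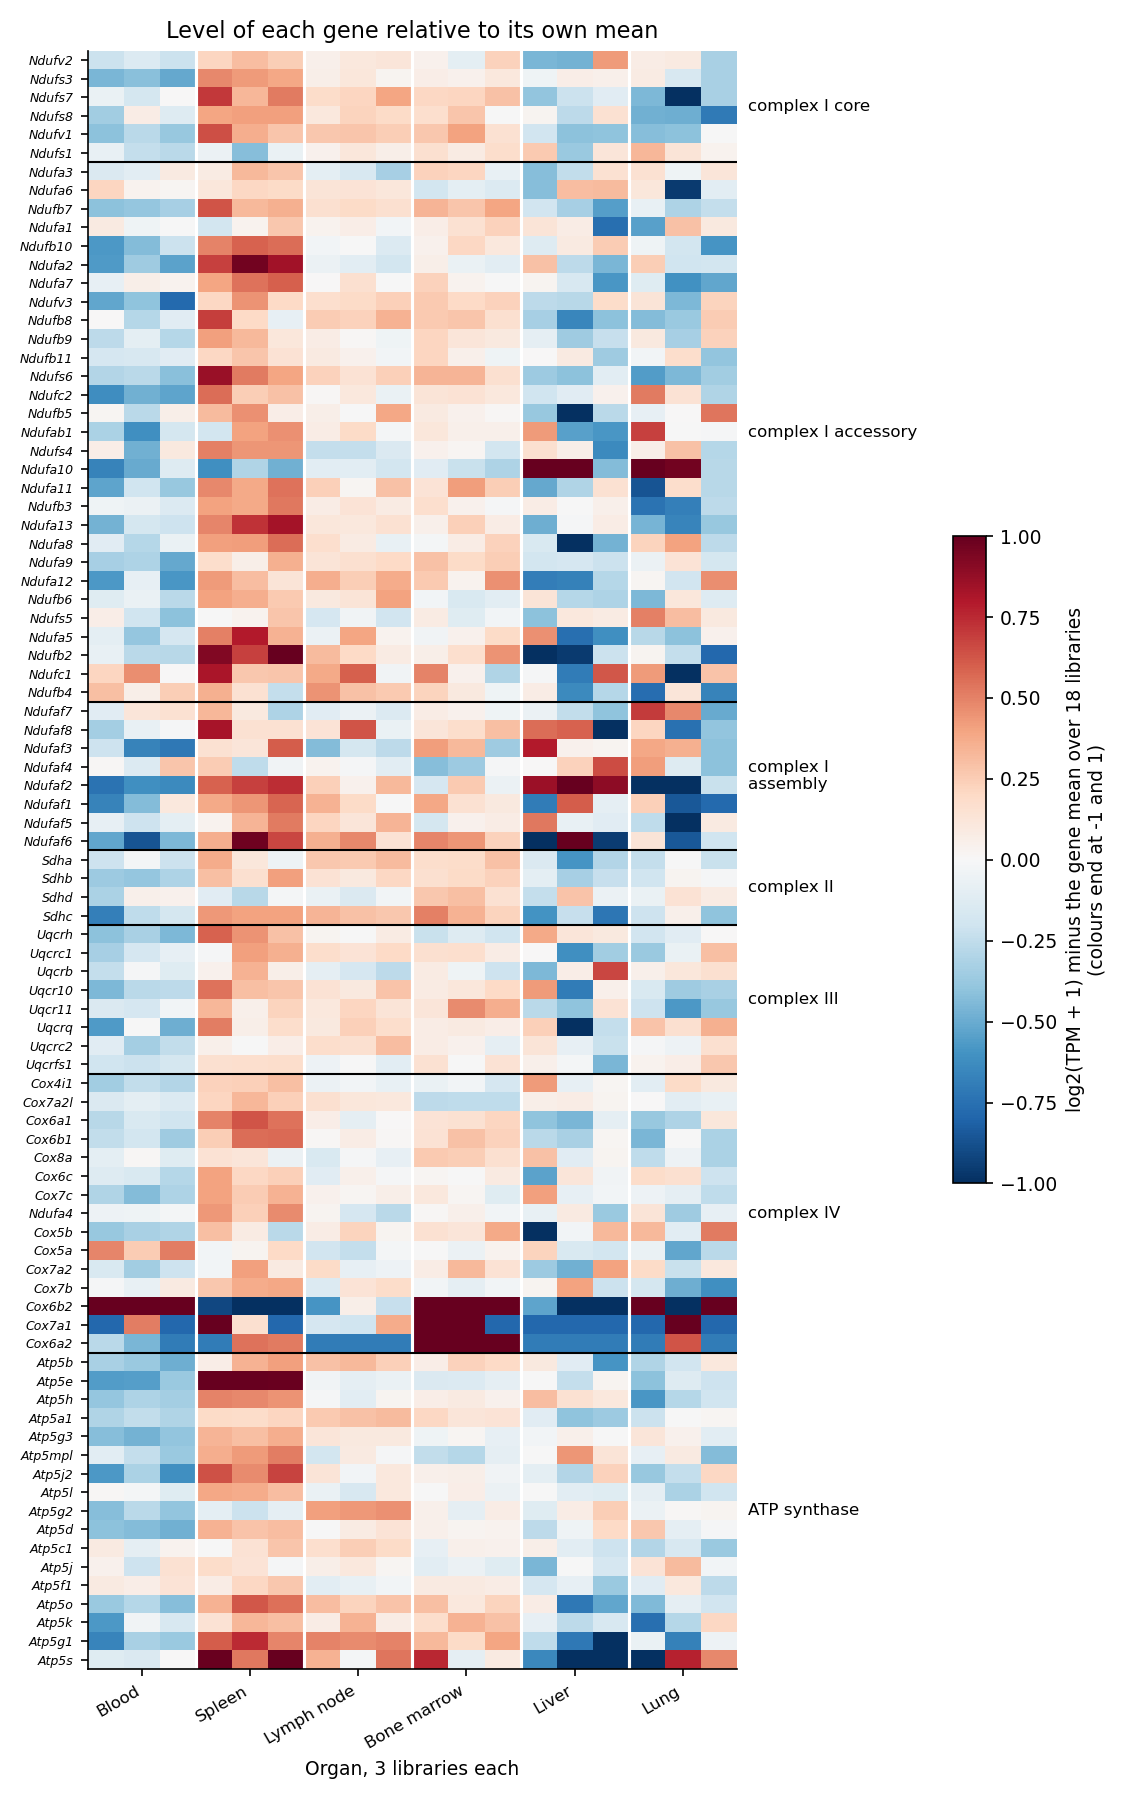
Each row is 1 member, ordered by role and within a role by mean level, and each column 1 library; colour gives log2(TPM + 1) minus the gene's mean over the 18 libraries, ending at -1 and 1. Spleen columns are the reddest in most rows (highest mean for 56 of all 88 members) and blood columns mostly blue (lowest mean for 39). Cox5a, Ndufa10, Cox6b2 and Cox6a2 run against this pattern, which is one in TPM. When libraries are scaled to T cell genes, 41 members are higher in blood than spleen and 2 lower. Members with every spleen library above all other libraries then number 2, against 23 in TPM. Spleen is then above bone marrow in 4 members and below it in 13. By the members' medians, it stays above lymph node, liver and lung.

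The members moved together only in part. The correlation of a member with the median profile of the other members over 18 libraries had a median of 0.585, was above 0.7 in 28 members and below 0 in 6. The 6 were Ndufa10 (-0.371), Ndufaf4 (-0.303), Cox5a (-0.164), Sdhd (-0.138), Cox6b2 (-0.101) and Uqcrb (-0.0093). Libraries of one organ share their composition, so these values describe the 18 libraries and carry no test.

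In comparisons with blood, the shift of the members was largest in spleen. In that comparison, 53 members were lower in blood and 2 higher, against 15.3% and 20.1% of all genes, and the members' median difference was -0.54, that of all genes 0. Against lymph node, 30 were lower and 1 higher (21% and 16.4% of all genes), with medians of -0.35 for members and -0.15 for all genes. Against bone marrow, 34 were lower and 2 higher (18.8% and 13%), with medians of -0.35 and -0.11. The 34 include Cox6a2, which bone marrow alone brought over the limit for members. Against liver, 18 were lower and 3 higher (16.1% and 23.3%), with medians of -0.06 and 0.07, a share of lower members (20.5%) near the background. Against lung, 19 were lower and 9 higher (17.3% and 26.4%), with medians of -0.13 and 0.12. Single libraries mattered for some counts. The 2 higher against spleen fell to 1 without blood replicate 1 or 3 or spleen replicate 1 or 2, and the 2 higher against bone marrow to 1 or 0 without each of the 6 libraries in turn. Without liver replicate 1, 9 members were called higher in blood than liver, and 5 without liver replicate 2. Without blood replicate 3, 12 rather than 19 were called lower in blood than lung.

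These directions rest on TPM as the common scale. With scaling to the T cell genes, 41 members were higher in blood than spleen and 2 lower, against 53.9% and 2.85% of all genes. The members' medians became 0.33 for spleen, 0.79 for lymph node, 0.18 for bone marrow, 0.92 for liver and 0.54 for lung, while those of all genes became 0.70, 0.76, 0.32, 0.90 and 0.67. Relative to all genes, the members were lower in blood than spleen under all 4 scalings, by -0.37 to -0.60. The same was so for bone marrow (-0.14 to -0.25) and lung (-0.12 to -0.27). For lymph node and liver that difference was -0.20 and -0.13 in TPM and turned to 0.03 in both with T cell scaling. A scaling multiplies all genes of a library by 1 factor, so it moves members and all genes in the same direction. Low genes move less on the log2(TPM + 1) scale, so the relative difference can shift, as it did for lymph node and liver. It is still fixed in large part in advance and does not test the result against the scaling. The 5 comparisons share the 3 blood libraries and are given side by side, not as support for each other.

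**Figure D3:**
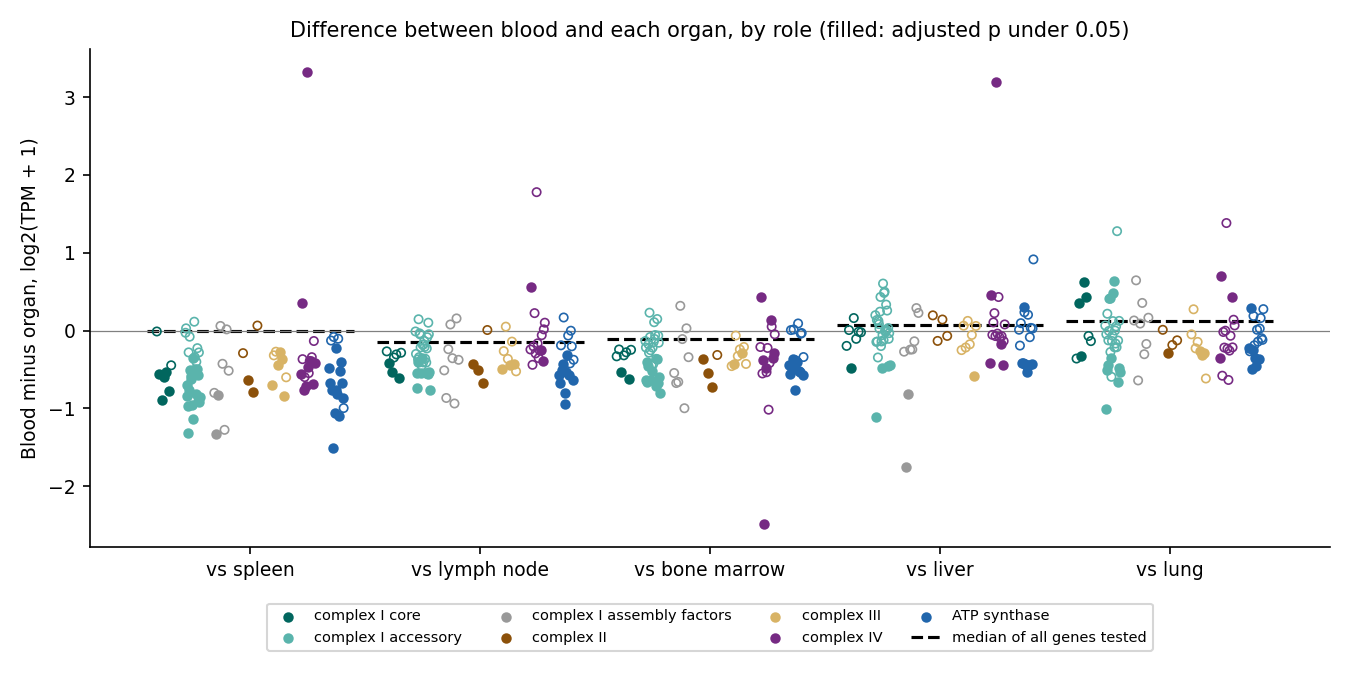
Each point is 1 member in 1 comparison, coloured by role; the vertical axis is blood minus the named organ in log2(TPM + 1), filled points have an adjusted p under 0.05 and dashed lines mark the median of all genes tested. Against spleen 53 filled points lie below 0 and 2 above; with scaling to T cell genes the members' medians lie above 0 in all 5 comparisons.

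Complex I couples NADH oxidation to proton pumping, and its core subunits carry the flavin and the iron-sulfur clusters. Among the 7 core subunits, 5 were lower in blood than spleen, 3 than lymph node, 2 than bone marrow and 1 than liver, none higher. These are 71.4%, 42.9%, 28.6% and 14.3% of the 7, against 15.3%, 21%, 18.8% and 16.1% of all genes. Against lung, 3 were higher in blood and 1 lower (42.9% and 14.3%, against 26.4% and 17.3% of all genes). Ndufv2, a core subunit of the module that binds NADH, was called in no comparison with blood, its difference from spleen being -0.45 (adjusted p = 0.0731).

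Ndufs7 and Ndufs8, the core subunits whose iron-sulfur clusters lead to coenzyme Q, were high in spleen, lower in blood and lower again in lung. They were named after their values had been seen. Ndufs7 had 142, 109 and 125 TPM in spleen, 82.9, 76.5 and 86.8 in blood and 63.2, 33.7 and 68.9 in lung. Ndufs8 had 101, 102 and 102 TPM in spleen, 59.9, 80.5 and 69.7 in blood and 54.4, 54.2 and 46.4 in lung. The groups did not overlap in either gene. Spleen minus lung was 1.22 ± 0.19 (adjusted p = 8.74e-05) for Ndufs7 and 0.96 ± 0.12 (adjusted p = 7.44e-06) for Ndufs8. The difference of Ndufs7 between blood and spleen, -0.60 (adjusted p = 0.0222), was lost without blood replicate 1, blood replicate 2, spleen replicate 1 or spleen replicate 3 (adjusted p = 0.0527 to 0.0913). That of Ndufs8 between blood and lung, 0.43 (adjusted p = 0.00787), was lost without blood replicate 2 (adjusted p = 0.0505). With T cell scaling, Ndufs8 lay higher in blood than spleen (0.34, adjusted p = 0.0214), and Ndufs7 too but without a call (0.28, adjusted p = 0.246). Spleen minus lung kept its direction in both.

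The 29 accessory subunits of complex I, which surround the core, gave 19 lower in blood than spleen, 9 than lymph node, 11 than bone marrow and 4 than liver, with none higher. Against lung, 7 were lower and 3 higher. The shares lower than spleen, lymph node and bone marrow were 65.5%, 31% and 37.9%, against 15.3%, 21% and 18.8% of all genes. The share lower than liver (13.8%) was below that of all genes (16.1%). Against lung 24.1% were lower and 10.3% higher, against 17.3% and 26.4% of all genes. Their median difference was -0.57 against spleen, which became 0.30 with T cell scaling. The most abundant ones, Ndufa3 and Ndufa6, were called in no comparison with blood. Ndufa3 had a mean of 171 ± 15.2 TPM (SD, n = 3) in blood and 208 ± 18.2 in spleen, and Ndufa6 had 177 ± 13.9 and 187 ± 6.25.

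Ndufc2 and Ndufv3 were lower in blood than in all 5 organs. Ndufc2, a subunit of the membrane arm, had 59.3, 65.4 and 63.5 TPM in blood, below all 15 other libraries. Its other values ran from 74.3 in a lung library to 135 in a spleen library, and the differences from -0.45 (liver) to -0.91 (spleen). The liver call (adjusted p = 0.0231) was lost without blood replicate 1, blood replicate 3 or liver replicate 3 (adjusted p = 0.052 to 0.079). Ndufv3, a subunit beside the NADH site, had 87.4, 95.3 and 73.3 TPM in blood and 152, 145 and 148 in bone marrow, a difference of -0.80 ± 0.16 (adjusted p = 0.000927). Its smallest difference, -0.45 (adjusted p = 0.0335) against liver, was lost without blood replicate 1, blood replicate 3 or liver replicate 3 (adjusted p = 0.0617 to 0.155). Its lung difference, -0.53 (adjusted p = 0.0114), was lost without blood replicate 3, lung replicate 1 or lung replicate 3 (adjusted p = 0.0508 to 0.062). With T cell scaling, both genes lay higher in blood than in lymph node and liver.

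Several accessory subunits had their highest mean in spleen. Ndufb2, in the membrane arm, had 77.04, 65.02 and 91.4 TPM in spleen, 37.9, 32.97 and 32.8 in blood and 16.1, 20.1 and 34.3 in liver. Its spleen and blood libraries did not overlap, a difference of -1.14 ± 0.24 (adjusted p = 0.00121) for blood minus spleen. Spleen minus lymph node was not called for Ndufb2, at 0.73 (adjusted p = 0.0516), and the bone marrow call, 0.70 (adjusted p = 0.041), was lost without spleen replicate 1, spleen replicate 3, bone marrow replicate 1 or bone marrow replicate 2 (adjusted p = 0.0903 to 0.152). Ndufa2, named after its values had been seen, had 214, 259 and 238 TPM in spleen and at most 162 in the other 15 libraries, and blood minus spleen was -1.32 ± 0.16 (adjusted p = 5.52e-06). Ndufa7 and Ndufb3, also named after their values had been seen, were highest in spleen and lowest in lung. Ndufb3 had 105, 104 and 115 TPM in spleen, 76.9, 76.04 and 72.3 in blood and 47.2, 49.1 and 66.02 in lung, 3 groups without overlap. Spleen minus lung was 1.00 ± 0.10 (adjusted p = 9e-07) for Ndufb3 and 0.93 ± 0.14 (adjusted p = 7.04e-05) for Ndufa7. Spleen minus lymph node was 0.34 (adjusted p = 0.0334) for Ndufb3 and 0.46 (adjusted p = 0.0406) for Ndufa7, and both calls were lost without each of the 6 libraries in turn. The bone marrow calls were lost without spleen replicate 3 or bone marrow replicate 3 (adjusted p = 0.0589 to 0.0599) for Ndufb3 and without spleen replicate 2, spleen replicate 3, bone marrow replicate 2 or bone marrow replicate 3 (adjusted p = 0.0991 to 0.132) for Ndufa7. The difference of Ndufa7 between blood and lung, 0.42 (adjusted p = 0.0246), was lost without blood replicate 2, blood replicate 3, lung replicate 2 or lung replicate 3 (adjusted p = 0.067 to 0.106). Both Ndufa7 and Ndufb3 lay higher in blood than spleen after T cell scaling.

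Ndufa10 stood out among the accessory subunits. It had 48.6, 54.7 and 71.3 TPM in blood and 50.8, 63.1 and 55.7 in spleen, but 203, 165 and 57.4 in liver and 160.5, 153 and 64.3 in lung. In liver and lung, 2 libraries each were high and 1 was at the level of the other sites. Blood minus liver was -1.10 ± 0.38 (adjusted p = 0.03) and blood minus lung -1.01 ± 0.38 (adjusted p = 0.0419). The liver call was lost without blood replicate 1, blood replicate 2, liver replicate 1 or liver replicate 2 (adjusted p = 0.0765 to 0.14). The lung call was lost without blood replicate 1, blood replicate 2, lung replicate 1 or lung replicate 2 (adjusted p = 0.0988 to 0.156). Both kept their direction with T cell scaling, without a call. Ndufb4 had 33.2, 27.9 and 31.9 TPM in blood and 15.4, 29.2 and 16.5 in lung, a difference of 0.64 ± 0.22 (adjusted p = 0.0296) that was lost without blood replicate 1, blood replicate 3, lung replicate 1 or lung replicate 3 (adjusted p = 0.0765 to 0.127). An annotated pseudogene of near-identical sequence, Ndufb4c, was at 31.2 TPM, 113% of the level of Ndufb4, so the division of reads between both genes is uncertain.

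The 8 complex I assembly factors (Ndufaf genes), which are needed to build the complex but do not stay in it, were rarely called: 2 were lower in blood than spleen, 2 than liver, and none differed from lymph node, bone marrow and lung by the test. Each count of 2 is 25% of the 8, against 15.3% (spleen) and 16.1% (liver) of all genes. The most abundant, Ndufaf7 and Ndufaf8, had means of 27.1 ± 2.73 and 18.2 ± 2.23 TPM in blood (SD, n = 3) and were called in none. Ndufaf2, a late assembly factor, varied most. It had 8.22, 9.06 and 8.89 TPM in blood, 22.1, 23.6 and 24.7 in spleen, 26.9, 42.96 and 27.5 in liver and 2.000, 5.07 and 12.2 in lung. Liver and spleen libraries all lay above blood, while lung ranged from below to above blood. Blood minus liver was -1.75 ± 0.36 (adjusted p = 0.000992), and liver minus lung 2.40 ± 0.36 (adjusted p = 8.65e-05). Smim15, which overlaps Ndufaf2 on the opposite strand, was at 65.6 TPM, and whether strand was used in counting is not given in the sources used here.

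Complex II is the only respiratory complex whose subunits all come from the nucleus, and it is also an enzyme of the citric acid cycle. Of its 4 genes, 2 were lower in blood than spleen, 3 than lymph node, 3 than bone marrow, 1 than lung and none than liver. The first shares are 50%, 75%, 75% and 25% of the 4, against 15.3%, 21%, 18.8% and 17.3% of all genes. Sdhb, the iron-sulfur subunit, had 77.3, 76.1 and 80.4 TPM in blood, 123, 112 and 133 in spleen, 111, 107 and 115 in lymph node and 111, 114 and 117 in bone marrow. All blood values lay below those 9. Blood minus spleen was -0.64 ± 0.08 (adjusted p = 1e-05) and blood minus bone marrow -0.55 ± 0.08 (adjusted p = 7.27e-05). Sdha, the flavoprotein whose promoter stretch holds the NRF1 word at 2 places, had 122, 139 and 122 TPM in blood and 170.3, 169 and 176 in lymph node, a difference of -0.43 ± 0.11 (adjusted p = 0.00758). Its bone marrow difference, -0.36 (adjusted p = 0.0243), was lost without blood replicate 1, blood replicate 3 or bone marrow replicate 3 (adjusted p = 0.082 to 0.0893). Sdhd, a membrane anchor, had 67.1, 60.05 and 71.9 TPM in spleen and 88.1, 90.1 and 81.02 in bone marrow. Spleen minus bone marrow was -0.38 ± 0.13 (adjusted p = 0.0416), and this call was lost without spleen replicate 1, spleen replicate 2, bone marrow replicate 1, bone marrow replicate 2 or bone marrow replicate 3 (adjusted p = 0.0579 to 0.154). With T cell scaling, Sdha and Sdhb were higher in blood than lymph node, and the median of the 4 genes was 0.41 against spleen and 0.69 against lymph node.

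Of the 8 complex III genes, 5 were lower in blood than spleen, 3 than lymph node, 2 than bone marrow, 1 than liver and 3 than lung, with none higher. The shares lower than spleen (62.5%), lymph node and lung (37.5% each) were above those of all genes (15.3%, 21% and 17.3%). Those for bone marrow (25%) and liver (12.5%) were near them (18.8% and 16.1%). Uqcrh encodes the hinge protein that helps bind cytochrome c. It had 375, 396 and 364.6 TPM in blood, 749.7, 678 and 609.8 in spleen, 646, 539.6 and 531 in liver and 427, 454 and 433 in bone marrow. Its 3 blood libraries lay below the other 15. Blood minus spleen was -0.84 ± 0.08 (adjusted p = 4.96e-07), blood minus liver -0.59 ± 0.08 (adjusted p = 2.02e-05) and blood minus bone marrow -0.21 ± 0.08 (adjusted p = 0.0567). Uqcrc1, one of the large core proteins, had 131, 147 and 156 TPM in blood and 164, 219.8 and 212 in spleen, a difference of -0.45 ± 0.16 (adjusted p = 0.0424) that was lost without blood replicate 1, blood replicate 2, blood replicate 3, spleen replicate 2 or spleen replicate 3 (adjusted p = 0.0549 to 0.15). When scaled to T cell genes, Uqcrh was higher in blood than liver by 0.40 and its difference from spleen was 0.05.

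Complex IV held some of the exceptions. Of its 15 genes, 7 were lower in blood than spleen, 2 than lymph node, 5 than bone marrow (Cox6a2 among them), 3 than liver and 1 than lung. In each comparison 1 or 2 were higher (6.67% to 13.3%). The shares lower than spleen (46.7%) and bone marrow (33.3%) were above those of all genes (15.3% and 18.8%). The shares lower than lymph node (13.3%) and lung (6.67%) were below those of all genes (21% and 17.3%). The share lower than liver (20%) was near that of all genes (16.1%). Cox4i1, the most abundant and the one that binds ATP as a regulator, had 519, 556 and 539 TPM in blood, below all other libraries, and 778, 779 and 815 in spleen. Blood minus spleen was -0.55 ± 0.10 (adjusted p = 0.000356), blood minus liver -0.42 ± 0.10 (adjusted p = 0.0033) and blood minus lymph node -0.24 ± 0.10 (adjusted p = 0.0689). Under T cell scaling, Cox4i1 was higher in blood than in all 5 organs.

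Cox5a, a matrix-side subunit of complex IV, was the 1 member called higher in blood in all 5 comparisons, against 7.49% of all genes. It had 213, 181 and 217 TPM in blood, 149, 154 and 174 in spleen, 133, 129 and 149 in lymph node, 152, 146 and 155 in bone marrow, 177, 137 and 133 in liver and 145, 106 and 126 in lung. All 3 blood values lay above the other 15, the closest being 181 in blood and 177 in a liver library. The differences were 0.70 ± 0.12 (adjusted p = 0.000199) against lung, 0.57 ± 0.12 (adjusted p = 0.00157) against lymph node, 0.46 ± 0.12 (adjusted p = 0.00711) against liver, 0.43 ± 0.12 (adjusted p = 0.0138) against bone marrow and 0.35 ± 0.12 (adjusted p = 0.0344) against spleen. The spleen call was lost without blood replicate 1, blood replicate 3, spleen replicate 1 or spleen replicate 2 (adjusted p = 0.0913 to 0.122). The bone marrow call was lost without blood replicate 1, blood replicate 3 or bone marrow replicate 2 (adjusted p = 0.0502 to 0.0609). Scaled to T cell genes, the differences of Cox5a kept their direction and were 0.97 to 1.72. After removing abundant RNA classes the spleen call was lost (0.26, adjusted p = 0.115). The 3 blood values then no longer all lay above the other 15.

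Cox7a2l encodes a protein that joins complexes III and IV into supercomplexes, and its replicates were tight. It had 353, 364 and 356 TPM in blood, 452, 492 and 459 in spleen, 435, 422 and 419.7 in lymph node and 325, 327 and 327 in bone marrow. Bone marrow lay below all other libraries and spleen above them, unlike the summed members, of which blood was lowest. Spleen minus bone marrow was 0.52 ± 0.04 (adjusted p = 1.14e-07). Blood minus spleen was -0.39 ± 0.04 (adjusted p = 1.74e-06) and blood minus bone marrow 0.13 ± 0.04 (adjusted p = 0.0239). The last call was lost without blood replicate 2, blood replicate 3, bone marrow replicate 1, bone marrow replicate 2 or bone marrow replicate 3 (adjusted p = 0.0541 to 0.0829). After T cell scaling, Cox7a2l was higher in blood than in all 5 organs, and spleen stayed above bone marrow.

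The tissue-restricted isoforms were low and uneven. Cox6b2, known as a testis isoform, had 8.82, 18.9 and 12.02 TPM in blood, 14.98, 23.9 and 18.5 in bone marrow, 11.4, 0 and 10.6 in lung and at most 3.93 in lymph node, spleen and liver. Blood minus spleen was 3.32 ± 0.76 (adjusted p = 0.00263) and blood minus liver 3.20 ± 0.76 (adjusted p = 0.00321), 2 sites where 2 of 3 libraries were listed at 0. Of the Cox6b mRNA, Cox6b2 made up 5.63% ± 1.86 (SD, n = 3) in blood, against 1.11% ± 0.295 in lymph node and 5.81% ± 1.00 in bone marrow, the rest being the general form Cox6b1. Cox6a2, a muscle isoform, had 2.84, 8.33 and 6.79 TPM in bone marrow and at most 1.51 in the other 15 libraries, of which 10 were listed at 0. Since bone marrow alone brought Cox6a2 over the limit for members, this is a description with no test. Cox7a1, a muscle isoform too, was listed at 0 in 9 libraries and reached 3.55, 3.46 and 0 TPM in bone marrow and 8.17 in 1 lung library, with no call. Both Cox6b2 and Cox6a2 were highest in bone marrow, where the summed myeloid, erythroid and cell cycle markers were high (45486 to 45764, 6314 to 6502 and 1213 to 1243 TPM), and their part in these levels was not tested.

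The ATP synthase uses the proton gradient to make ATP. Of its 17 genes, 13 were lower in blood than spleen, 10 than lymph node, 11 than bone marrow, 7 than liver and 6 than lung. These are 76.5%, 58.8%, 64.7%, 41.2% and 35.3% of the 17, against 15.3% to 21% of all genes. Against liver 1 gene was higher in blood and against lung 1, and the median difference was -0.67 against spleen, or 0.21 with T cell scaling. Atp5b, the catalytic beta subunit and the most abundant member, had 526, 509.8 and 471 TPM in blood, 693, 840.3 and 876 in spleen and 807, 828 and 778 in lymph node. Blood lay below both, with differences of -0.67 ± 0.14 (adjusted p = 0.00136) and -0.68 ± 0.14 (adjusted p = 0.00117). With T cell scaling the differences of Atp5b turned to 0.21 (adjusted p = 0.211) and 0.48 (adjusted p = 0.0074). Its liver values, 706, 611 and 437 TPM, ran from below the blood libraries to above the lowest spleen library.

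Atp5e, the epsilon subunit of the central stalk, had the largest step of the abundant members. It had 1104, 1076 and 1069 TPM in spleen, 364.8, 366 and 414 in blood, and between 405 and 547 TPM in the other 12 libraries. Spleen minus the other sites was 1.07 ± 0.07 (adjusted p = 1.57e-07) for lymph node, 1.14 ± 0.07 (adjusted p = 1.26e-08) for bone marrow, 1.08 ± 0.07 (adjusted p = 2.56e-08) for liver and 1.26 ± 0.07 (adjusted p = 1.75e-09) for lung. Blood minus spleen was -1.50 ± 0.07 (adjusted p = 2.38e-10). The smallest blood difference, -0.25 (adjusted p = 0.014) against lung, was lost without blood replicate 1, blood replicate 2 or lung replicate 2 (adjusted p = 0.0574 to 0.0717). After T cell scaling, Atp5e turned higher in blood than in the 4 organs other than spleen, by 0.17 to 0.73. The bone marrow value was not called (adjusted p = 0.0713).

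In 8 members, blood was called lower than in all 5 organs, against 3.44% of all genes. They were Atp5d, Atp5e, Atp5g2, Atp5g3, Atp5j2, Ndufc2, Ndufs3 and Ndufv3, of which Atp5j2 and Ndufs3 were named after their values had been seen. In none of the 5 comparisons were 23 members called, among them 6 of the 8 assembly factors, Ndufs1 and Ndufv2 of the complex I core, Sdhd, Uqcrb, Uqcrq, Cox5b, Cox7a2 and Atp5j. The share of all genes called in none was not computed, so whether 23 is many or few cannot be said. Atp5d, the delta subunit of the central stalk, had 141, 139 and 134 TPM in blood, and its lowest value elsewhere was 157 in a liver library. Its differences ran from -0.41 ± 0.10 (adjusted p = 0.00358) against liver to -0.76 ± 0.10 (adjusted p = 1.58e-05) against spleen. Atp5j2, the f subunit of the membrane part, had 188, 225 and 183 TPM in blood and 435, 389 and 449 in spleen, a difference of -1.10 ± 0.14 (adjusted p = 1.32e-05). Its liver call was lost without blood replicate 1, blood replicate 3 or liver replicate 3 (adjusted p = 0.0676 to 0.103). Its lung call was lost without blood replicate 1, blood replicate 3, lung replicate 2 or lung replicate 3 (adjusted p = 0.0514 to 0.257). Ndufs3, a core subunit of complex I, ran from -0.33 (adjusted p = 0.00472) against lung to -0.89 (adjusted p = 3.99e-07) against spleen. When scaled to T cell genes, all 8 were higher in blood than in lymph node and liver. Atp5s, the coupling factor B gene, varied widely (16.2, 11.6 and 19.1 TPM in spleen, 4.55, 2.78 and 2.91 in liver, 0.7200, 13.8 and 11.2 in lung) and was not called against blood.

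**Figure D4:**
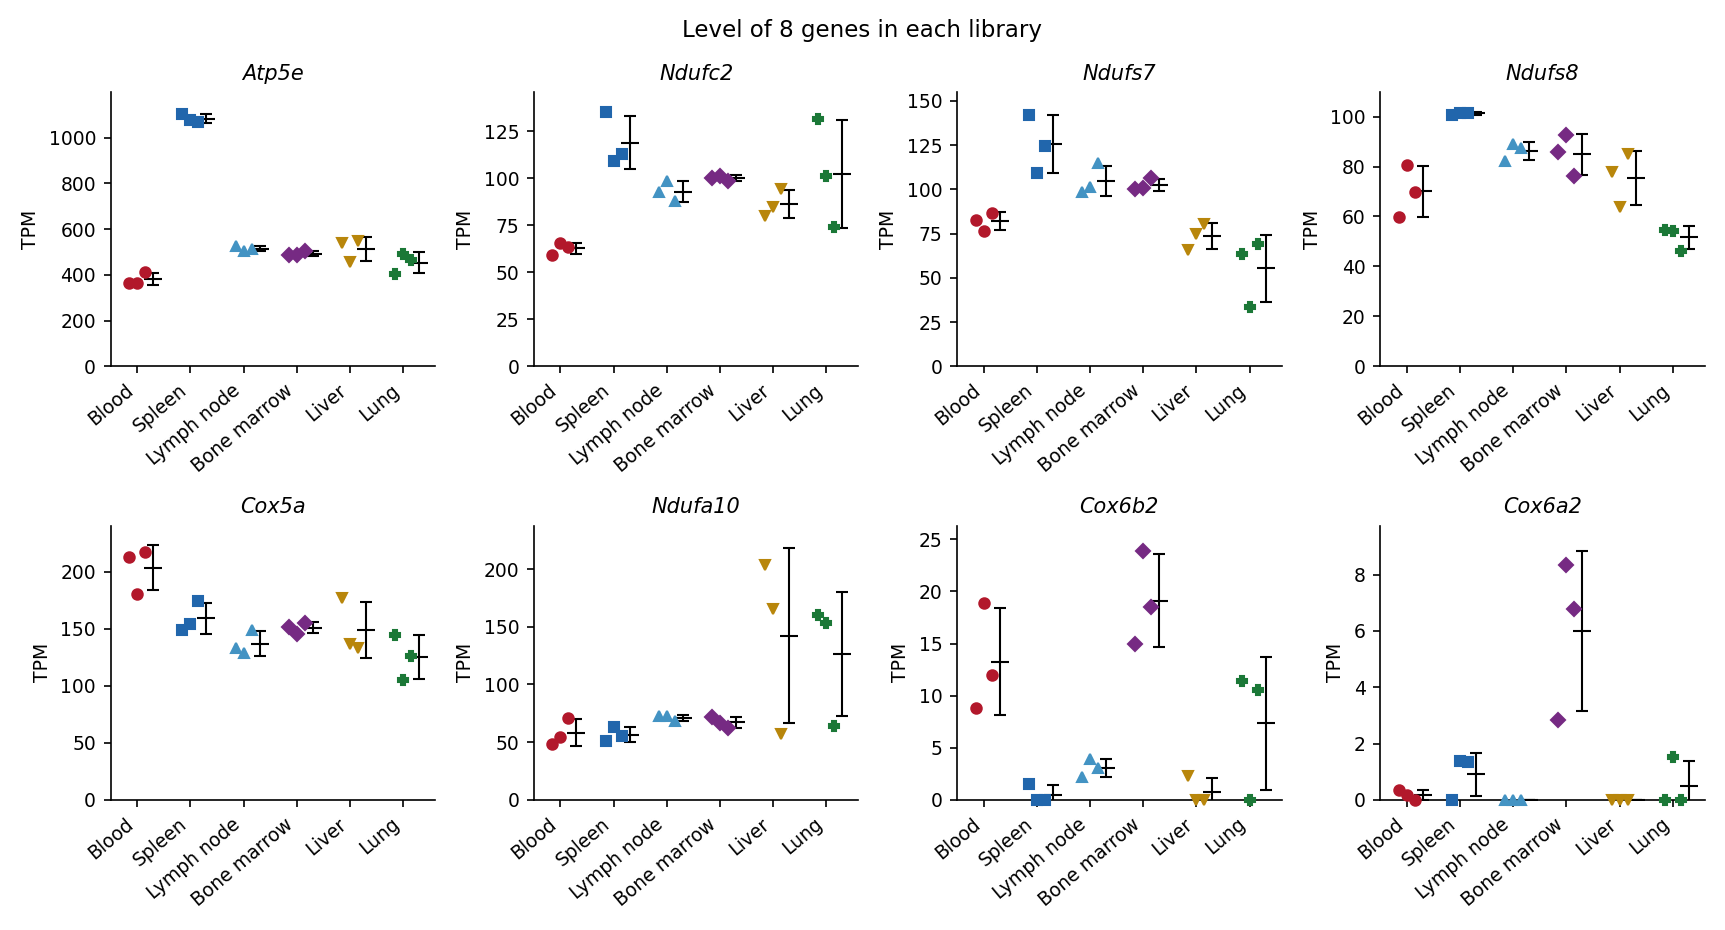
TPM of 8 members in each of the 18 libraries, by organ; points are libraries, the bar beside them is the mean ± SD of 3, and each vertical axis starts at 0. Atp5e stands at 1069 to 1104 TPM in spleen, Ndufs7 and Ndufs8 fall from spleen over blood to lung, and Cox5a is highest in blood. Ndufa10 is high in 2 of 3 liver and 2 of 3 lung libraries, and Cox6b2 and Cox6a2 are highest in bone marrow. All of this is on the TPM scale. With T cell scaling Ndufs8 lies higher in blood than spleen, and Ndufs7 too but without a call.

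The ring of the ATP synthase is built from identical c subunits made from 3 genes, Atp5g1, Atp5g2 and Atp5g3, whose precursors differ in their import sequence. Together they had 480 TPM in blood, 745 in spleen, 780 in lymph node, 653 in bone marrow, 619 in liver and 628 in lung. Atp5g3 was the major form in all sites. Atp5g1 had 54.99, 69.9 and 67.3 TPM in blood, 134, 147 and 123 in spleen, 124, 122 and 124 in lymph node and 73.3, 52.9 and 40.7 in liver. Blood and liver lay below spleen and lymph node without overlap. Its share of the family was 18.1% ± 1.81 (SD, n = 3) in spleen, 16.6% ± 0.927 in bone marrow and 15.8% ± 0.0960 in lymph node, but 13.3% ± 1.28 in blood, 11.8% ± 2.58 in lung and 9.04% ± 2.98 in liver, a share that no scaling changes. Spleen minus liver was 1.30 ± 0.19 (adjusted p = 7.11e-05) for Atp5g1. Atp5g2 peaked in lymph node instead, with 315, 319.6 and 326 TPM against 222, 204 and 222 in spleen, and spleen minus lymph node was -0.57 ± 0.08 (adjusted p = 0.000149). It was the 1 member called lower in spleen than in lymph node. Blood minus lymph node was -0.80 ± 0.08 (adjusted p = 6.79e-07) for Atp5g2, which turned to 0.36 with T cell scaling, and its small spleen difference, -0.23 (adjusted p = 0.0341), was lost without blood replicate 1, blood replicate 3, spleen replicate 1 or spleen replicate 3 (adjusted p = 0.0973 to 0.121). Near-identical copies of Atp5g2 were at 14.4 TPM, 6.0% of its level. Atp5g3, whose upstream stretch holds the ERR word, had 233, 225 and 237 TPM in blood, below all other libraries, and 396, 385 and 403 in spleen, above them. Its differences ran from -0.40 ± 0.05 (adjusted p = 2.44e-05) against bone marrow to -0.77 ± 0.05 (adjusted p = 9.47e-09) against spleen. With T cell scaling Atp5g3 lay above all 5 organs in blood, without a call against spleen (adjusted p = 0.112) and bone marrow (adjusted p = 0.0665).

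Among the 5 organs other than blood, spleen again held the most members with a higher level. More members were higher in spleen than lymph node (21 against 1 lower), where 4.44% and 9.87% of all genes were higher and lower. Against bone marrow the counts were 21 and 3 (5.92% and 18.2% of all genes), against liver 49 and 1 (17.3% and 14%), and against lung 47 and 1 (22.8% and 18%). Lymph node and bone marrow differed in 5 members, 2 higher and 3 lower, against 8.89% and 13.7% of all genes, or 22.5% in either direction. Lymph node exceeded liver in 23 members and was lower in 1 (21.6% and 9.45%), and exceeded lung in 26 and was lower in 1 (27.4% and 14.9%). Bone marrow exceeded liver in 23 and was lower in 4 (25.1% and 9.36%), and exceeded lung in 29 and was lower in 1 (30.3% and 13.2%). The shares higher in lymph node and bone marrow were near the background. Cox6a2, which bone marrow alone brought over the limit for members, is counted in each bone marrow comparison of this paragraph. Liver and lung differed in 15 members, 10 higher and 5 lower in liver (17.6% and 17.3%). With T cell scaling the comparisons with bone marrow and lung changed: lymph node was above bone marrow in 0 members and below it in 70 (1.93% and 43.5% of all genes), above lung in 2 and below it in 35 (12.3% and 26.3%), and liver was above lung in 3 and below it in 37 (10.1% and 28.4%). Leaving out single libraries, the members called between spleen and lymph node numbered 11 to 16, against 22 with all libraries (14.3% of all genes in either direction). The lowest count came without lymph node replicate 3, and the count was under 15 without spleen replicate 2 or 3 and without each lymph node replicate. Between lymph node and bone marrow, 3 members rather than 5 were called without lymph node replicate 1 or 3 or bone marrow replicate 1 or 2, and 8 without the liver libraries.

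Relative to all genes, the members' spleen excess was above 0 in TPM and with T cell scaling. Since 1 factor per library moves members and all genes in the same direction, low genes less, this is no check of the scaling. The members' median minus the all-gene median was 0.33 for spleen against lymph node, 0.36 against bone marrow, 0.38 against liver and 0.35 against lung in TPM, and 0.25 to 0.42 with T cell scaling. In absolute terms the excess was not kept for bone marrow. With that scaling, spleen was above bone marrow in 4 members and below it in 13 (2.92% and 37.2% of all genes), with a median of -0.12. Against the other 3 organs the members' medians stayed above 0, at 0.49, 0.54 and 0.24. Against lymph node and bone marrow, Atp5e and Ndufa2 had the largest spleen excess of the members in TPM, with spleen minus lymph node at 0.95 ± 0.16 (adjusted p = 0.00066) for Ndufa2. Against liver it was Atp5s, at 1.91 (adjusted p = 0.0174), a call lost without spleen replicate 3 (adjusted p = 0.0606), and against lung Ndufaf2, at 1.98 (adjusted p = 0.00036). Ndufa10 was the 1 member lower in spleen than liver, at -1.13 (adjusted p = 0.0328), a call lost without spleen replicate 1, spleen replicate 2, spleen replicate 3, liver replicate 1 or liver replicate 2 (adjusted p = 0.0552 to 0.142). It was also the 1 member lower in spleen than lung, at -1.04 (adjusted p = 0.0389), a call lost without spleen replicate 1, spleen replicate 2, spleen replicate 3, lung replicate 1 or lung replicate 2 (adjusted p = 0.0607 to 0.147).

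The rest of the mitochondrial programme was read from lists, whose counts stand against the all-gene shares already given: 15.3%, 21%, 18.8%, 16.1% and 17.3% lower and 20.1%, 16.4%, 13%, 23.3% and 26.4% higher in blood, in the order spleen, lymph node, bone marrow, then liver, then lung. The 78 mitochondrial ribosomal protein genes, which build the ribosome that translates the mitochondrial mRNAs, gave 29 lower in blood than spleen, 30 than lymph node and 19 than bone marrow, with 1 higher in each, and their medians were -0.53, -0.47 and -0.37. Those are 37.2%, 38.5% and 24.4% of the list lower. Against liver and lung, 8 and 9 were higher and 10 and 9 lower, both below the shares of all genes. The 22 protein import genes gave 12, 10, 9, 3 and 5 lower in blood and 1, 0, 0, 3 and 2 higher in the same order, and their shares lower than liver (13.6%) and lung (22.7%) were near those of all genes. The 17 citric acid cycle and pyruvate dehydrogenase genes gave 6, 8, 8, 4 and 5 lower and 0, 0, 0, 2 and 1 higher. Idh3a, the catalytic subunit of isocitrate dehydrogenase, was lower in blood in all 5, from -0.50 (adjusted p = 0.00291) against lymph node to -1.19 (adjusted p = 5.32e-07) against liver. Its bone marrow call stayed with T cell scaling (-0.53, adjusted p = 0.00172), the liver difference fell short of a call (-0.22, adjusted p = 0.114), and Idh3a turned to 0.63 (adjusted p = 0.000237) against lymph node, 0.22 against spleen and 0.06 against lung. Under T cell scaling, the medians of these lists were above 0 in all 5 comparisons.

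Of the 39 other assembly factors, 9 were lower in blood than spleen and 1 higher, and the counts were 7 and 1 for lymph node, 2 and 1 for bone marrow, 2 and 6 for liver and 5 and 5 for lung. Of these, the share lower than spleen (23.1%) was above that of all genes and the shares lower than in the other 4 organs (5.13% to 17.9%) below it. Of the 20 electron carrier and coenzyme Q genes, 3 were lower in blood than spleen and 3 higher, 15% each. The counts were 4 and 1 for lymph node and 4 and 0 for bone marrow, the shares lower (20% each) being near those of all genes. Cyc1, the cytochrome c1 of complex III, was lower in blood, at -0.60 (adjusted p = 0.00729) against spleen, -0.56 (adjusted p = 0.0104) against lymph node and -0.59 (adjusted p = 0.0094) against bone marrow. None of these calls stayed with T cell scaling, where Cyc1 was at 0.28 (adjusted p = 0.173), 0.59 (adjusted p = 0.00625, higher in blood) and -0.06 (adjusted p = 0.844). Of the 18 tested regulators of mitochondrial biogenesis, 2 were lower in blood than spleen and 1 higher. The counts were 6 and 0 for lymph node, 4 and 0 for bone marrow, 3 and 2 for liver, and 4 and 3 for lung. The share of regulators lower than spleen (11.1%) was below that of all genes, those for liver (16.7%), bone marrow and lung (22.2% each) near it, and that for lymph node (33.3%) above it. Among them, Nrf1, whose factor binds the NRF1 word, was lower in blood than bone marrow, at -0.69 (adjusted p = 0.00241). T cell scaling ended that call (-0.16, adjusted p = 0.487). Nrf1 was also called lower than lymph node, at -0.48 (adjusted p = 0.0214), and lung, at -0.44 (adjusted p = 0.0288). Both calls were lost without some single libraries. With T cell scaling Nrf1 turned to 0.66 (adjusted p = 0.00213) against lymph node and 0.22 (adjusted p = 0.248) against lung. Gabpb1, a subunit of GABP, was called lower in blood in all 5 comparisons. Its differences ran from -0.28 (adjusted p = 0.0386) against bone marrow to -2.40 (adjusted p = 1.59e-11) against lung. The spleen and bone marrow calls were lost without some single libraries. With T cell scaling the lung call stayed (-1.74, adjusted p = 7.68e-10). Gabpb1 then turned higher in blood than spleen (0.56, adjusted p = 0.000223) and lymph node (0.67, adjusted p = 3.41e-05). It was not called against bone marrow and liver. Tfam, which packages mitochondrial DNA, was called in no comparison, at 0.01 (adjusted p = 0.998) against spleen. The medians of these 3 lists lay above 0 in all 5 comparisons with T cell scaling.

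The mitochondrially encoded subunits went the other way. Of 13, 8 were higher in blood than spleen and 1 lower, 10 higher than lymph node, 9 than bone marrow and 7 than liver, with none lower in the last 3. Against lung none was higher and 3 were lower. The shares higher than spleen, lymph node, bone marrow and liver were 61.5%, 76.9%, 69.2% and 53.8%, against 13% to 23.3% of all genes. The share lower than lung was 23.1%, against 17.3%. mt-Nd1, a proton-pumping subunit of complex I, gave 0.49 (adjusted p = 3.81e-06) against spleen, 0.61 (adjusted p = 2.7e-07) against lymph node, 0.61 (adjusted p = 5.91e-07) against bone marrow, 0.71 (adjusted p = 5.07e-08) against liver and -0.21 (adjusted p = 0.00719) against lung, of which the last turned to 0.47 (adjusted p = 5.73e-06) with T cell scaling. mt-Co1, the catalytic subunit of complex IV, gave 0.46 (adjusted p = 3.42e-05) against spleen and 0.01 (adjusted p = 0.904) against lung. The 1 gene lower in blood than spleen was mt-Atp6, at -0.81 (adjusted p = 0.0209), a call lost without blood replicate 1, blood replicate 3, spleen replicate 2 or spleen replicate 3 (adjusted p = 0.0514 to 0.0861) and at 0.07 (adjusted p = 0.839) with T cell scaling. The list's medians were 0.49, 0.55, 0.68, 0.66 and -0.12 in TPM, in the order given for mt-Nd1, and the last turned to 0.56 with T cell scaling.

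The cytosolic ribosomal protein genes, also short and abundant mRNAs, were lower in blood in most cases: 79 of 83 tested against spleen, 76 against lymph node, 40 against bone marrow, 76 against liver and 75 against lung. Those are 95.2%, 91.6%, 48.2%, 91.6% and 90.4% of the list, against 15.3% to 21% of all genes. Against bone marrow 7 were higher in blood and against liver 2. Scaled to T cell genes, the medians of these ribosomal genes too were above 0 in all 5 comparisons. Short mRNAs as a class took 28.4% to 28.6% of the TPM in spleen and 23.6% to 26.2% elsewhere, counting mRNAs under 800 bases. Members and other genes averaging 50 TPM or more were set side by side by mRNA length. In the comparison of blood with spleen, other genes up to 600 bases had a median difference of -0.41 (97 genes) and members -0.56 (26 genes). At 601 to 800 bases the medians were -0.47 (168) and -0.52 (15), at 801 to 1200 bases -0.35 (323) and -0.61 (12), at 1201 to 2000 bases -0.22 (730) and -0.45 (13), and at 2001 to 4000 bases -0.01 (1166) and -0.39 (6). Members had the lower median in all 5 length classes, and the medians lay closest at 601 to 800 bases. Against liver, the medians were -0.02 to -0.09 for members and -0.04 to -0.12 for other genes. The length classes of members hold 6 to 26 genes, so their medians are coarse, and the part of mRNA length in the results was not tested further.

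**Figure D5:**
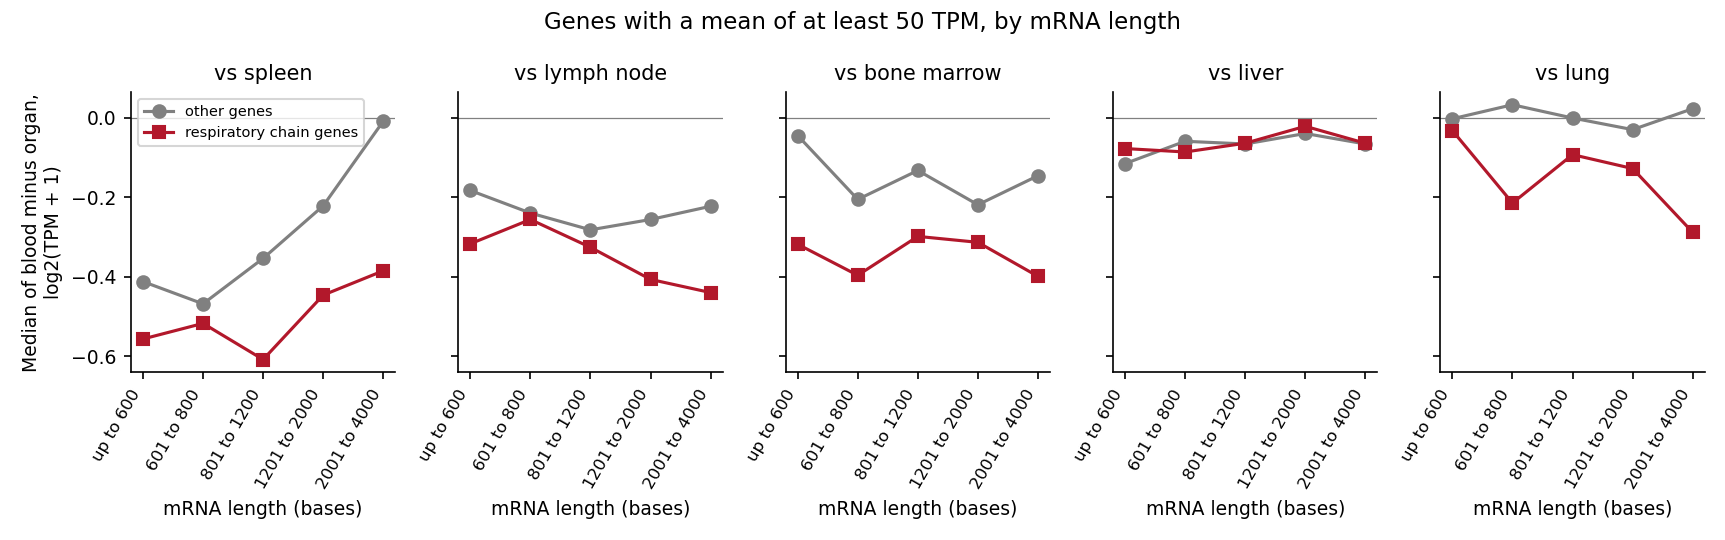
Median difference (blood minus the named organ, log2(TPM + 1)) of genes averaging 50 TPM or more, by mRNA length in bases; grey circles are other genes, red squares the members, 6 to 26 per class. Against spleen both are nearest 0 at 2001 to 4000 bases (-0.01 for other genes, -0.39 for members). Other genes are lowest at 601 to 800 bases (-0.47) and at -0.41 up to 600 bases. Members are lowest at 801 to 1200 bases (-0.61), at -0.56 up to 600 bases, and lie below other genes in each class. All values are in TPM, and with T cell scaling the medians of members and of all genes lie above 0.

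Shared sequence limits some of these values. Of the 88 members, 22 have an annotated near-identical copy elsewhere (at least 95% identity over at least 50% of the mRNA or 200 bases), and in 5 (Ndufb4, Ndufs5, Ndufa12, Atp5l and Atp5g2) the copies exceed 5% of the member's level. For 39 members another annotated gene overlaps, and for 17 that gene has at least 10 TPM. Of the members described above these include Ndufa3 (Tfpt, 26.5 TPM), Uqcrh (Gm12854, 16.5), Cox4i1 (Emc8, 33.8), Ndufb2 (Braf, 16.7), Atp5d (Cbarp, 35.7), Ndufa2 (Tmco6, 24.9) and Ndufs3 (Kbtbd4, 17.3), these overlapping genes being on the opposite strand. Cox4i1 is also overlapped on its own strand by Gm20388 (27.3 TPM), which counting by strand would not separate.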

How the data were processed

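Sequencing used polyadenylated RNA and a directional library kit, per the labels' protocols. The authors deposited TPM per gene for each of 18 libraries, computed from reads that the submitters' processing notes link to STAR, RSEM and mm10. Versions, annotation and strand setting are not given in the sources used here. TPM keeps no read depth, so depth behind a value is unknown, and no count test was possible. Identifiers were matched to symbols, biotypes and mRNA lengths of GENCODE M21, where 55227 of 55487 matched, and the 260 others held 129 to 501 TPM per library. No 2 libraries held identical values, and the depositors' tables contained 0 columns of unknown samples.

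Members were fitted with all genes averaging 1 TPM or more in any group, 16694 in all, by limma 3.58.1 in R 4.3.3 (empirical Bayes with a mean trend, robust) on log2(TPM + 1), all 18 libraries in 1 fit, with Benjamini-Hochberg adjustment and a threshold of 0.05. Fold changes on this scale understate the change of low genes. The script was tested on simulated data with known changes. Tables were handled with pandas 2.3.3 in Python 3.11.15 and near-identical copies sought with BLAST 2.17.0.

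The members and all gene lists were chosen with earlier results of these data known. Named by rule were the 2 most abundant members per role, the 6 with the widest range of group means, those called alike in all 5 blood comparisons (up to 4 per direction), the 2 largest changes per comparison and direction, tissue-restricted isoforms, the c subunit genes and Cox7a2l, 28 in all beside 1 gene that is not reported here but counts among the 88 members. A further 7 and Sdhd were named after their values had been seen. The naming rule covered members only. Idh3a, Cyc1, Nrf1, Gabpb1, Tfam, mt-Nd1, mt-Co1 and mt-Atp6, from the other lists, were picked under no such rule.

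Alternatives were median-of-ratios scaling, scaling to 20 T cell genes (each library multiplied so that their mean log2(TPM + 1) is equal), removal of 155 abundant mitochondrial, ribosomal, haemoglobin, platelet and myeloid genes with rescaling, a pseudocount of 0.1, no filter, a filter of 10 TPM, library weights, a replicate block, only the 2 groups compared, a 5 TPM limit for members, and leaving out each library. Leaving out the liver libraries was added after seeing the data. A planned comparison of protein sequences between isoforms was not made, and proteins are not used here.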

Additional observations from a re-analysis of the deposited data

Results flagged for a closer look

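Several members differed from blood in opposite directions in 2 organs, each comparison passing the test, with the difference between both organs tested directly in limma (Benjamini-Hochberg adjusted p). Of complex I, Ndufs7 was lower in blood than spleen (-0.60) and higher than lung (0.62), and spleen minus lung was 1.22 (adjusted p = 8.74e-05). Ndufs8 (-0.54 and 0.43) gave 0.96 (adjusted p = 7.44e-06). Ndufa7 (-0.51 and 0.42) gave 0.93 (adjusted p = 7.04e-05), and Ndufb3 (-0.52 and 0.48) gave 1.00 (adjusted p = 9e-07). With T cell scaling these 4 genes were higher in blood than spleen, Ndufs7 without a call (adjusted p = 0.246). The opposite directions were therefore not kept, while spleen minus lung stayed positive in all 4.

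Cox7a2l, the supercomplex factor, was lower in blood than spleen (-0.39), lymph node (-0.25) and liver (-0.18) and higher than bone marrow (0.13). The differences between those organs were 0.52 for spleen minus bone marrow (adjusted p = 1.14e-07), 0.38 for lymph node minus bone marrow (adjusted p = 2.84e-06) and -0.31 for bone marrow minus liver (adjusted p = 2.76e-05). The last 2 turned, with T cell scaling, to -0.24 and 0.15, and spleen minus bone marrow was 0.17.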

How the results depend on the processing

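Scaling to the T cell genes was the alternative that changed results most. The members' counts higher and lower in blood became 41 and 2 against spleen, 77 and 0 against lymph node, 21 and 1 against bone marrow, 79 and 1 against liver, and 65 and 0 against lung, with medians of 0.33, 0.79, 0.18, 0.92 and 0.54. Of all genes, 53.9%, 58.1%, 33%, 62.9% and 52.6% were then higher and 2.85%, 1.83%, 7.63%, 4.41% and 7.28% lower. It reversed the sign of 59 of the 175 differences of named members from blood, and the cause was not tested. Some reversed values were not called: Atp5b, Uqcrh, Ndufv3, Atp5d, Atp5g3 and Ndufs7 against spleen, and Atp5g1 against lymph node. The same holds for all genes listed against bone marrow (adjusted p of 0.0665 or more). Against lung, Ndufc2, Ndufv3, Atp5d, Atp5j2 and Ndufa2 were not called. Blood minus spleen became Atp5b 0.21, Sdhb 0.23, Uqcrh 0.045, Uqcrc1 0.43, Cox4i1 0.33, Cox7a2l 0.50, Ndufv3 0.027, Atp5d 0.12, Atp5g3 0.11, Atp5g2 0.65, Ndufa7 0.37, Ndufb3 0.36, Ndufs7 0.28 and Ndufs8 0.34. Blood minus lymph node became Atp5b 0.48, Atp5e 0.73, Sdha 0.72, Sdhb 0.65, Uqcrh 0.73, Cox7a2l 0.91, Ndufc2 0.59, Ndufv3 0.39, Atp5d 0.64, Atp5g3 0.62, Atp5g1 0.21, Atp5g2 0.36, Atp5j2 0.59 and Ndufs3 0.62. Blood minus bone marrow became Atp5e 0.17, Sdha 0.17, Atp5d 0.059, Atp5g3 0.14, Atp5g2 0.16, Atp5j2 0.013, Ndufs3 0.0015 and Ndufa2 0.087. Blood minus liver became Atp5e 0.57, Uqcrh 0.40, Cox4i1 0.58, Cox7a2l 0.82, Ndufc2 0.53, Ndufv3 0.54, Atp5d 0.58, Atp5g3 0.55, Atp5g2 0.56, Atp5j2 0.55 and Ndufs3 0.50. Blood minus lung became Atp5e 0.43, Sdhb 0.38, Uqcrh 0.38, Cox4i1 0.32, Ndufc2 0.0050, Ndufv3 0.14, Atp5d 0.17, Atp5g3 0.22, Atp5g2 0.32, Atp5j2 0.31, Ndufs3 0.34 and Ndufa2 0.23.

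Median-of-ratios scaling gave 6 members higher and 13 lower in blood than lymph node (median -0.106), 15 lower than bone marrow (median -0.168) and 5 higher than liver. Removal of abundant classes gave 1 higher than spleen (18% of all genes) and a median of -0.637 (-0.0378 for all genes). No filter gave 1 higher than spleen, and a filter of 10 TPM gave 5 higher than liver. Library weights gave 3 higher and 60 lower than lymph node and 58 lower than bone marrow. Fits of only the 2 groups compared gave 3 higher and 55 lower than lymph node, 55 lower than bone marrow, 10 lower than liver, and 5 higher and 12 lower than lung. The shares of all genes under the changed filters, library weights and 2-group fits are not given here, so these counts stand without a background. The same holds for the counts below, with single libraries left out or with a replicate block.

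With single libraries left out, members higher and lower in blood ran from 1 to 2 and 45 to 47 for spleen (median -0.55 to -0.50), 1 to 1 and 26 to 28 for lymph node (-0.35 to -0.30), 0 to 1 and 25 to 33 for bone marrow (-0.37 to -0.33), 3 to 9 and 13 to 20 for liver (-0.06 to -0.03), and 6 to 10 and 12 to 18 for lung (-0.15 to -0.08). The members differing among the 6 sites ran from 57 to 70. Of 1050 such values for named members, 965 kept direction and call, 72 lost the call, 13 gained it and 0 reversed. A pseudocount of 0.1 left all 175 differences of named members as they were.

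No sign of pairing by replicate number was seen: deviations of same-numbered libraries of blood and an organ correlated at -0.0074 to 0.0302 in 15 pairs, 0 of them over 0.1. With 3 libraries per site this cannot exclude that same-numbered libraries share animals or a sort, which the labels do not give. With the replicate number as a block, members higher and lower were 2 and 53 for spleen, 1 and 30 for lymph node, 2 and 33 for bone marrow, 4 and 18 for liver and 9 and 20 for lung, and all 175 differences of named members kept direction and call. TPM gives no depth, and lung and liver libraries, with fewer genes above 0 and larger replicate spread, limit what can be called there.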

Other observations

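Outside the rule, Ndufb1-ps, which the annotation lists as a non-coding RNA although its name is that of a complex I subunit, had a mean of 41.8 TPM, within the range of the accessory subunits (27.6 to 179 TPM). Ndufb4c, a processed pseudogene, had 31.2 TPM and was listed at 0 in 2 of 3 liver libraries and at 47.0 TPM in the third.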
